A study of Mus musculus with 2 samples.

Results

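Translation factors are the soluble proteins that bring a ribosome to the start codon of an mRNA and then move it along the coding sequence. They were examined here as 60 probe sets for 43 genes, out of 12422 non-control probe sets and 8251 named genes on the array. A probe set is a group of short probes designed against 1 transcript. Members were all probe sets with a single annotated symbol beginning with Eif (eukaryotic initiation factor) or Eef (eukaryotic elongation factor). The eIF2 kinases (Eif2ak genes), Eif2s3x and Eif2s3y were set aside by the same rule. The rule itself uses symbols and no measured level.

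RNA came from mouse mesoangioblasts, vessel-associated progenitor cells, and was hybridized to Affymetrix U74A arrays, 1 array per clone (D16 and D351). Both clones came from C57BL6 dorsal aorta at embryonic day 9.5, as an explant of 5 days plated at limiting dilution over Mitomycin C-treated embryonic fibroblasts in RPMI with 20% serum, then grown on gelatin. They carry no transgene or added agent in the labels, and each group is a single clone, so the difference between them cannot be told apart from the difference between 2 cultures. Without replicates there is no test, and every ratio below is a size measured between these arrays.

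Initiation begins when eIF2, carrying the initiator tRNA, and eIF1, eIF1A, eIF3 and eIF5 load the small ribosomal subunit. The eIF4 factors recognise the mRNA cap and unwind the leader, and eIF5B joins the large subunit. In elongation eEF1A delivers aminoacyl-tRNA, the eEF1B subunits recharge it with GTP, and eEF2 moves the ribosome on. Cells tune these steps through eIF2 phosphorylation, through the 4E-binding proteins downstream of the kinase mTOR, and through the kinase of eEF2. In progenitor cells, as in other growing cells, the factors are known as abundant housekeeping products.

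Factor levels were close in the clones. Of the 43 genes, 38 reached the intensity floor of 17.4 in 1 clone or both, 37 of them in both. The floor is the 40th percentile of the scaled values, and lower values were set to it. Among those 38 genes, 34 lay within 2-fold. Only Eif4g3 was at least 2-fold higher in D351, where 10.6% of the 6098 measured genes of the array passed that size. At least 2-fold higher in D16 were Eif2s2, Eif3c and Eif4ebp1, where 8.87% of all genes did. Neither count stood above the share of the whole array. In RNA of a whole culture, fewer cells that express a gene and less of its RNA per cell cannot be told apart. At a 1.5-fold limit, 28 of the 38 (73.7%) lay within it, against 57.9% of all genes. Past it were 3 factor genes higher in D351, with 21.1% of all genes there, and 7 higher in D16, with 21.0%.

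The middle of the factor distribution lay lower in D351 than that of the array. Their median log2 ratio of D351 over D16 was -0.30, against -0.03 over all genes, and 26 of 38 (68.4%) were below 0, against 51.6% of all genes. The sign of that median depended on the scaling: with scaling on the hybridization control probe sets, which read RNAs normally spiked into the hybridization mix, it was 0.10, and that of all genes 0.34. Under that scaling 14 of the 38 factor genes were below 0. The distance between the factor median and that of all genes ran from -0.31 to -0.19 over the 10 settings that give one. Among genes with a mean level of 100 or more, 31 factor genes had a median of -0.30 and 2963 genes of the array one of 0.02. The error that these arrays can show is how far probe sets of the same gene lie apart. Its SD, in log2 units, was 0.52 over 806 genes, larger than most of the single differences.

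**Figure D1:**
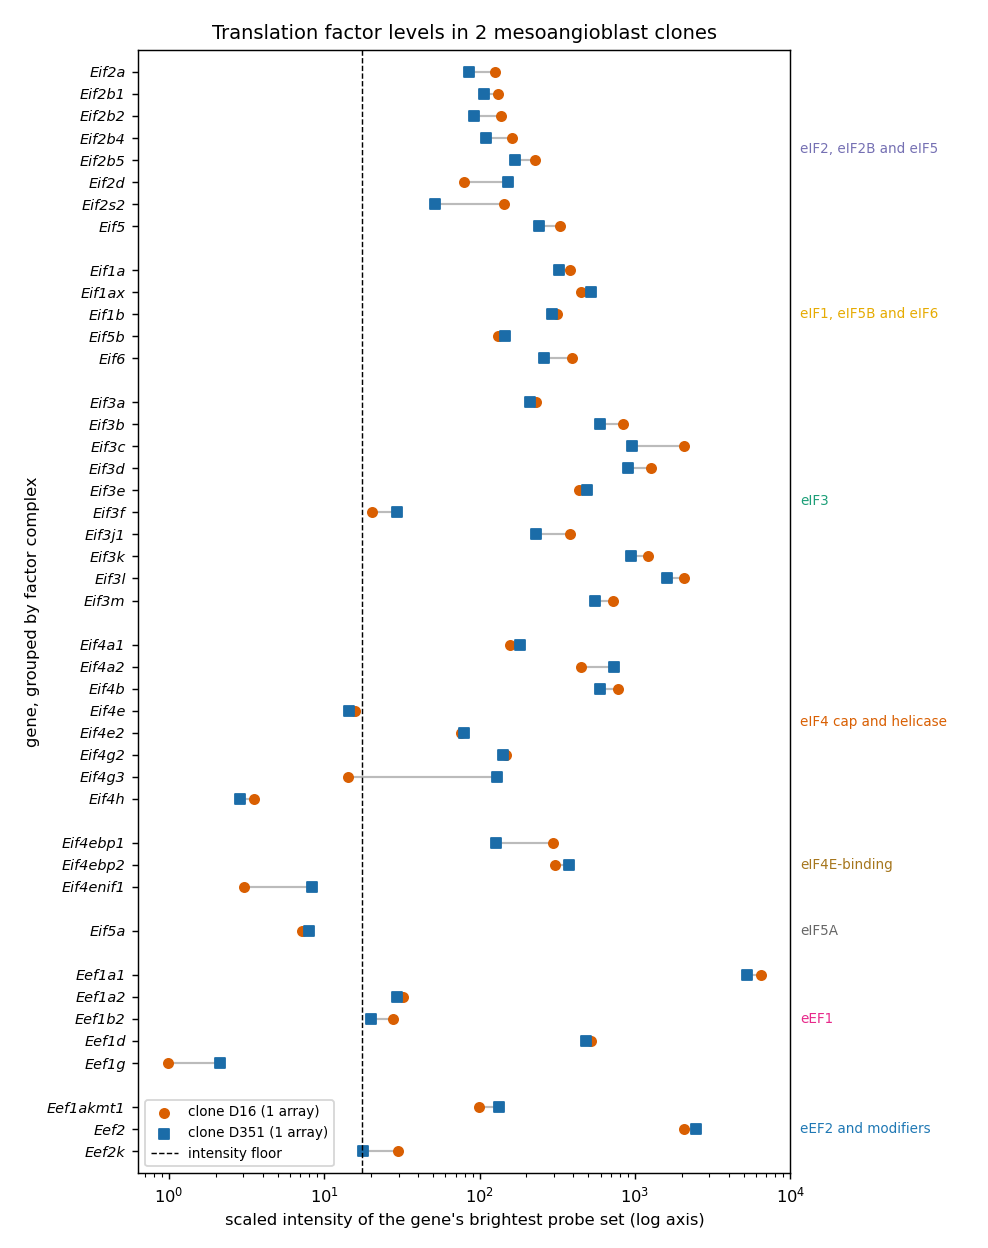
Scaled intensity (log axis) of the brightest probe set of each of the 43 factor genes in clone D16 (circles) and clone D351 (squares), 1 array each, grouped by complex; the dashed line is the floor of 17.4. Most pairs lie close together, and Eif4g3 crosses the floor. Positions of different genes are not comparable levels, since probe sets differ in brightness.

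Promoters are shown for the factors past 2-fold, as a description of their letters. Sequences are from RefSeq on build GRCm38.p6, whose table held a start for 35 of the 43 genes; Eif4ebp1 was not among them. Each line gives the 250 bases before an annotated start, 5′ to 3′ on the gene's strand. Capitals mark matches on either strand to any of 6 motifs: the E-box CACGTG, the cAMP response element TGACGTCA, the ETS element CCGGAAG, the GC box GGGCGG, the CCAAT box CCAAT and the TATA box TATAAA. Matches to different motifs were counted separately, also where they overlap.

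Eif3c, chr7:126566367-126566616, minus strand: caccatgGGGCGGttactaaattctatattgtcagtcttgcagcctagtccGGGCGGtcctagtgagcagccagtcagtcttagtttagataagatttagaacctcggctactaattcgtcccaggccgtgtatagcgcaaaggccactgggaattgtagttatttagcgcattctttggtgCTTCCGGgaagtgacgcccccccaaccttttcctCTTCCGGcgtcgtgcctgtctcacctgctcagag

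Eif2s2, chr2:154892907-154893156, minus strand: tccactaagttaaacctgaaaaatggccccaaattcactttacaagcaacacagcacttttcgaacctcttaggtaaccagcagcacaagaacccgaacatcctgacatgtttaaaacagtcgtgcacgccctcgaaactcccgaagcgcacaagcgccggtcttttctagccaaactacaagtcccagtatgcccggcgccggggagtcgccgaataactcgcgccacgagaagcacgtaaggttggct

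Eif4g3, chr4:137993205-137993454, plus strand: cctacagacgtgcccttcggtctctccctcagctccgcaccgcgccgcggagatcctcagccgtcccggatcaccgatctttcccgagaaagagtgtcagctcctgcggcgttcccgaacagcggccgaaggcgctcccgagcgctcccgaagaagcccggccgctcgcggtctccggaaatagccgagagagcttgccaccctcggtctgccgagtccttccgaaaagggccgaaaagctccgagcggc

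The Eif3c window held 2 ETS elements, read as CTTCCGG on this strand and beginning 68 and 34 bases before the start, and 2 GC boxes. The windows of Eif2s2 and Eif4g3 held no match to these letters. Eif4g3 has a second annotated start 1 base further on. ETS elements are bound by the ETS family of transcription factors, whose members often act close to the starts of housekeeping genes.

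The ETS element was also present before 3 other genes of eIF3, so 4 of the 9 eIF3 genes with a sequence had it. Over all 49 windows of the factor genes, several per gene where several starts are annotated, 9 (18.4%) held it, as did 6.91% of the 32851 windows in the table, which includes non-coding genes. The GC box was in 32 of the 49 windows (65.3%) and in 32.7% of all, and the E-box in 11 (22.4%) and in 6.02%. CCAAT boxes were in 10 (20.4%) and in 33.9%, TATA boxes in 3 (6.12%) and in 12.4%, and the cAMP response element in 0 and in 1.55%. A match is a description of the letters and not a measured binding site. The stretches around the element show its place in the other 3 genes of eIF3, in capitals, with up to 12 bases on either side:

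Eif3d, chr15:77970876-77970906, minus strand: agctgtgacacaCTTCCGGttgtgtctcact

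Eif3l, chr15:79075176-79075206, plus strand: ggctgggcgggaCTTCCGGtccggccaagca

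Eif3m, chr2:105017064-105017094, minus strand: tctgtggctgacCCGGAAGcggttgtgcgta

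All 4 of these eIF3 genes were lower in D351, Eif3c by a log2 ratio of -1.11, Eif3d by -0.50, Eif3m by -0.39 and Eif3l by -0.38; scaled on the hybridization controls, Eif3m and Eif3l had 0.01 and 0.02. Of the eIF3 genes whose windows lacked the element, Eif3a, Eif3b, Eif3j1 and Eif3k were also lower, from -0.73 to -0.14. Scaled on the hybridization controls, Eif3a had 0.26 and Eif3k 0.04, while Eif3b had -0.09 and Eif3j1 -0.33. Eif3f, near the floor, was higher at 0.53. The 4 measured genes outside eIF3 with the element had ratios from -0.10 for Eif1b to 0.31 for Eif4ebp2 by their brightest probe sets. Under the hybridization control scaling those ratios ran from 0.29 to 0.71. Other probe sets of these genes ran from -1.18 for Eif4e2 to at least 1.28 for Eif4ebp2. No relation of the element to the ratios was tested.

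eIF2 with its partners was the group with the lowest median among those with at least 3 measured genes. All 8 member genes of the group were measured, 7 of them lower in D351, and the median was -0.50. It was -0.10 with the arrays scaled on the hybridization controls, still below 0. The gamma subunit gene of eIF2, Eif2s3x, left out by the membership rule, went the other way with a log2 ratio of 0.37. Eif2s2 encodes the beta subunit of eIF2, which binds the mRNA and the GTPase-activating factor eIF5. Its brightest probe set measured 144 in D16 and 51.5 in D351, 2.80-fold higher in D16. The second probe set of the gene did not show that difference: it read 48.0 and 45.1, a log2 ratio of -0.09. Their mean log2 ratio was -0.79, within 2-fold, so the call of Eif2s2 rests on 1 of its 2 probe sets.

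eIF2B is the exchange factor that reloads eIF2 with GTP and is blocked by phosphorylated eIF2. Its 4 measured subunit genes were all lower in D351, none by 2-fold. Eif2b1, a regulatory subunit, measured 131 in D16 and 107 in D351. Eif2b2, also regulatory, measured 138 and 91.3, a log2 ratio of -0.59. Eif2b4, whose probe set can match other transcripts, measured 162 and 110. These differences are each close to or below the spread between probe sets.

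Eif2b5, the catalytic subunit, measured 225 and 168, and its second probe set 113 and 98.8, with log2 ratios of -0.43 and -0.19. Both probe sets were lower in D351. Scaled on the hybridization controls, Eif2b1 had a log2 ratio of 0.10 and Eif2b5 of -0.03, and Eif2b2 and Eif2b4 had -0.20 and -0.16, so the shared direction of the 4 subunits depended on the scaling.

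Eif5, which triggers GTP hydrolysis on eIF2 at the start codon, measured 328 in D16 and 242 in D351. Eif2a, an alternative initiator tRNA factor, measured 126 and 85.0. Eif2d was the exception of the group. It encodes a factor able to deliver tRNA without GTP and to recycle ribosomes, and measured 78.9 in D16 and 152 in D351, 1.92-fold higher in D351. That left it just short of the 2-fold limit, which it passed when scaled on the hybridization controls (log2 ratio of 1.34). Its other probe set was below the floor in both clones and gives no ratio.

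Among factors that scan for the start codon and join the subunits, no gene of the 5 measured reached 2-fold, and the median was -0.10. Eif1ax encodes the X-linked form of eIF1A. Its probe sets measured 451 and 62.7 in D16 and 523 and 96.0 in D351, both higher in D351, with log2 ratios of 0.21 and 0.61. Its autosomal paralogue Eif1a went the other way by both of its probe sets, at 379 and 371 in D16 and 324 and 239 in D351 (log2 ratios of -0.23 and -0.63). The paralogues thus had opposite signs, with sizes near the probe set spread. Under the hybridization control scaling the brightest Eif1a probe set had 0.16 and that of Eif1ax 0.61, both positive.

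Eif6, which keeps the ribosomal subunits apart and takes part in making the large one, measured 394 in D16 and 258 in D351, a log2 ratio of -0.61. Eif1b, a close relative of eIF1, measured 315 and 294. Eif5b measured 131 in D16 and 145 in D351 by its brighter probe set. A dimmer one was at 19.2 and 14.9, with the opposite sign and at the edge of the floor. Eif1b and Eif5b thus hardly differed between the arrays.

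eIF3 is the large scaffold that links the small subunit to eIF4G. All 10 of its genes on the array were measured, 8 were lower in D351, and the median was -0.38. Scaled on the hybridization controls the median was 0.01, so the direction of the group was lost while that of all genes moved up to 0.34. Eif3c, a core subunit, read 2072 in D16 and 957 in D351, a 2.16-fold difference. It has 1 probe set, and its log2 ratio of -1.11 was the nearest to 2-fold of the 3 genes called higher in D16; scaled on the hybridization controls it was -0.72, within 2-fold.

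Smaller differences were seen for Eif3a and Eif3b. Eif3a, the largest scaffold subunit, measured 231 in D16 and 210 in D351. Eif3b, an RNA-binding scaffold subunit, measured 834 and 598. The 2 arrays thus differed by a log2 ratio of -0.14 for Eif3a, -0.48 for Eif3b and -1.11 for Eif3c. Unequal ratios among genes of 1 complex are a statement about these probe sets, and other probe sets for Eif3a and Eif3c were not present.

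Of the other subunits, Eif3d, which can itself bind the cap, measured 1269 in D16 and 898 in D351. Eif3l measured 2081 and 1604, and Eif3k 1209 and 946. All 3 were lower in D351, with log2 ratios between -0.50 and -0.36. Eif3m was also lower, at 726 and 555. Eif3j1, a loosely bound subunit that sits in the decoding centre, measured 379 and 229, a log2 ratio of -0.73, the nearest below 2-fold in that direction after the eEF2 kinase gene Eef2k (-0.74).

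Eif3e and Eif3f went the other way. Eif3e measured 436 in D16 and 491 in D351, a log2 ratio of 0.17. Eif3f, a subunit with an MPN domain, was near the floor at 20.3 and 29.4, so its log2 ratio of 0.53 is a ratio of dim values. Dimmer second probe sets of Eif3b, Eif3e and Eif3l were below the floor in both clones and give no ratio.

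**Figure D2:**
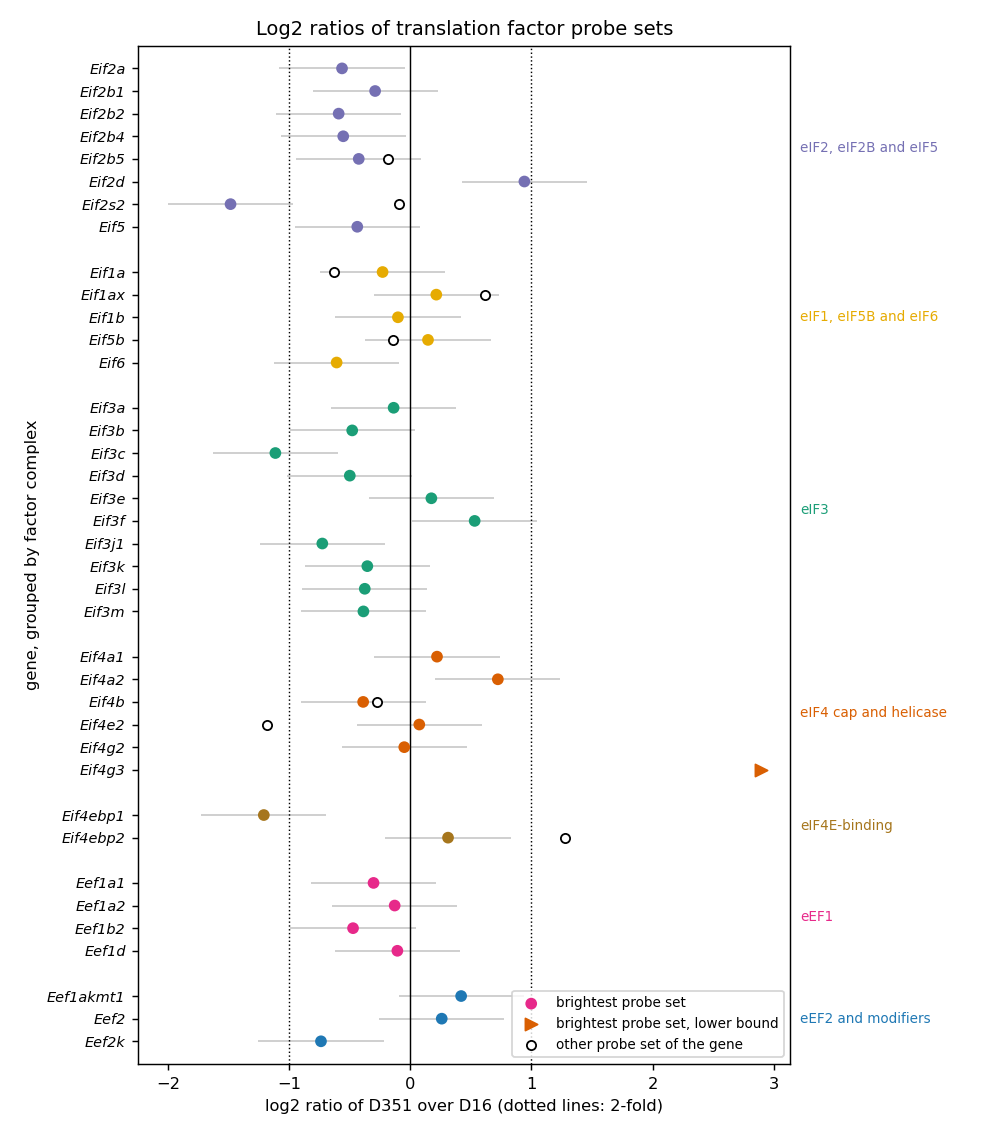
Log2 ratio of D351 over D16 for every factor probe set that reached the floor; filled points are the probe set that stands for the gene with a bar of 1 SD between probe sets (0.52), open points the others, and the triangle a lower bound. Most points lie between the dotted 2-fold lines, and the open points of Eif2s2 and Eif4e2 lie over 1 unit from the filled ones. The open points of Eif4ebp2 and Eif5b are bounds as well, each with 1 clone under the floor.

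The cap-binding and helicase group held the single factor gene past 2-fold in D351. Of its 8 genes 6 were measured, 4 of them higher in D351, with a median of 0.15. Eif4g3 encodes one of the eIF4G scaffolds that bridge the cap-binding protein and eIF3. Its only probe set read 14.2 in D16, below the floor, and 129 in D351, so the gene was at least 7.43-fold higher in D351. The bound shrinks with a higher floor, to a log2 ratio of 1.28 with the floor at the 60th percentile, and stayed past 2-fold in all settings tried. Eif4g2, a relative of eIF4G without the region that holds the cap-binding protein, measured 147 and 142. The 2 genes of the family thus differed widely in their ratios.

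Eif4a2, an RNA helicase of eIF4F, measured 447 in D16 and 737 in D351, 1.65-fold higher in D351, and was the second nearest below 2-fold in that direction. Its paralogue Eif4a1, the main helicase of most cells, measured 157 and 182 by a probe set of a kind that can match other transcripts. Both were higher in D351, Eif4a2 with a log2 ratio of 0.72 and Eif4a1 with 0.22. Under the scaling on hybridization controls Eif4a2 had 1.12 and passed 2-fold. Eif4b, which stimulates the helicase, went the other way by both measured probe sets, at 781 and 328 in D16 and 596 and 271 in D351 (log2 ratios of -0.39 and -0.28). The scaling on hybridization controls left its brightest probe set at 0.00.

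The probe sets of Eif4e2, a cap-binding relative of eIF4E, disagreed. The brighter measured 75.3 in D16 and 79.3 in D351 and is of a kind that can match other transcripts, while the other measured 69.3 and 30.5, a log2 ratio of -1.18. Taken by that probe set alone, Eif4e2 would join the genes at least 2-fold higher in D16. Eif4e, the cap-binding protein itself, was below the floor in both clones by both probe sets, as was Eif4h, a helicase cofactor. A reading below the floor sets no level for a gene on these arrays, and Eif4e and Eif4h have no ratio.

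The 4E-binding proteins hold eIF4E away from eIF4G until mTOR phosphorylates them. Eif4ebp1 measured 295 in D16 and 127 in D351 by its only probe set, 2.31-fold higher in D16. Eif4ebp2 measured 305 in D16 and 378 in D351, and a dimmer probe set, with a D351 level of 42.1 and a D16 level under the floor, was at least 2.42-fold higher in D351. The 2 genes thus had opposite signs, with log2 ratios of -1.21 and 0.31. With the hybridization control scaling they had -0.82 and 0.71, still opposite, and Eif4ebp1 was no longer past 2-fold. Eif4enif1, which carries eIF4E into the nucleus, was below the floor in both clones.

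Elongation factor genes stayed within 2-fold throughout. Of 8 genes, 7 were measured, with a median of -0.13. Eef1a1, which encodes the tRNA-delivering factor eEF1A of most tissues, measured 6450 in D16 and 5225 in D351, a log2 ratio of -0.30. Its paralogue Eef1a2, known from muscle and neurons, measured 32.0 and 29.3, low on both arrays. Neither paralogue differed by more than the probe set spread.

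Among the exchange factor subunits, Eef1d measured 518 in D16 and 481 in D351. Eef1b2 was near the floor, at 27.8 and 20.0, by a probe set that can match other transcripts. Eef1g was below the floor in both clones, as was Eif5a, which helps the ribosome through difficult peptide bonds. All 4 measured genes of eEF1 were lower in D351, with a median of -0.22, but scaled on the hybridization controls that median was 0.18.

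Eef2, the translocation factor, measured 2066 in D16 and 2472 in D351, a log2 ratio of 0.26. Eef2k, the kinase that inactivates it, was dim, at 29.7 in D16 and 17.8 in D351, the second value just above the floor. Their signs were opposite with a log2 ratio of -0.74 for Eef2k, a size that rests on a value at the floor. They kept opposite signs under the hybridization control scaling, at 0.65 and -0.34. Eef1akmt1, a methyltransferase of eEF1A, measured 99.6 and 133, a log2 ratio of 0.42.

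**Figure D3:**
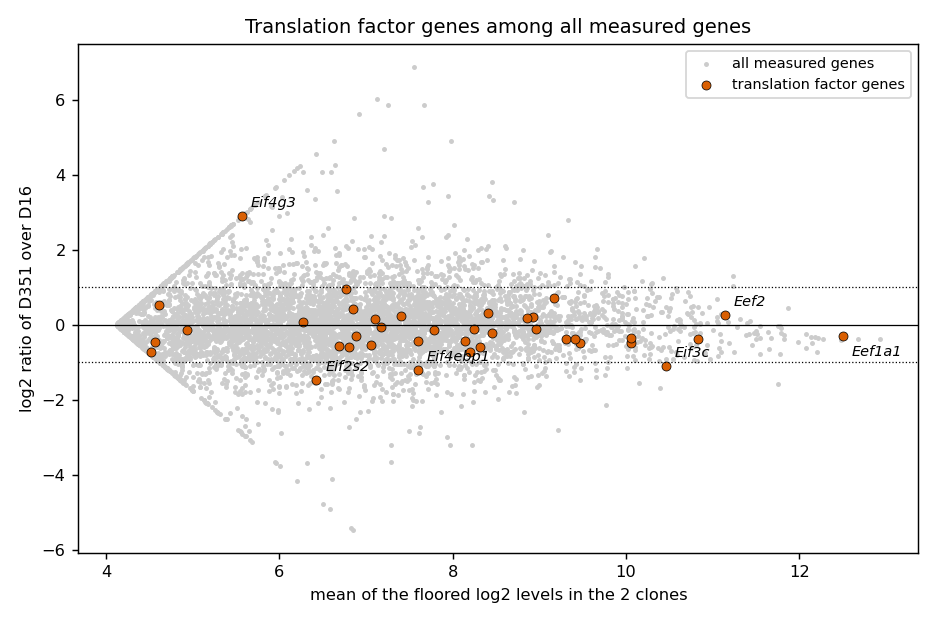
Log2 ratio of D351 over D16 against the mean floored log2 level for the 6098 measured genes (grey) and the 38 measured factor genes (orange), 1 array per clone. The factors follow the bulk of the genes, with Eif4g3 on the edge set by the floor in D16 and Eif2s2, Eif3c and Eif4ebp1 below the lower 2-fold line.

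Agreement between probe sets could be examined for 8 factor genes with several measured probe sets. For Eif1a, Eif1ax, Eif2b5 and Eif4b, both measured probe sets had the same sign and lay within 1 unit of log2 ratio. Those of Eif4b can both match other transcripts. Those of Eif4ebp2 had the same sign and lay at least 0.96 apart, as the larger ratio is a bound. Eif2s2 and Eif4e2 differed by more than 1 unit, and Eif5b in sign. The SD between probe sets measured in both clones was 0.57 over the 6 such genes, near the 0.52 of the array. Over probe sets in place of genes, 46 of the 60 were measured. Of these, 2 passed 2-fold upward in D351, where 10.2% of the 7337 measured probe sets with a single symbol did, and 4 upward in D16, where 8.68% did. Their median was -0.25.

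**Figure D4:**
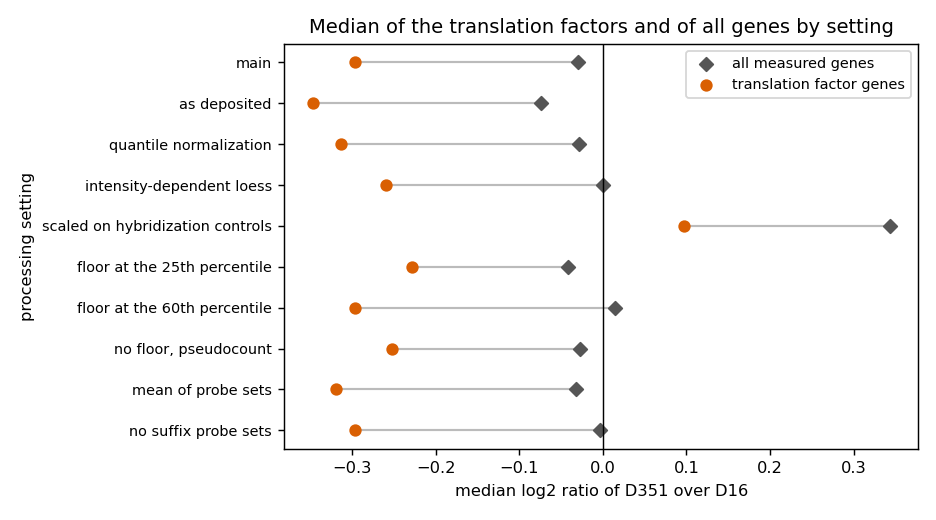
Median log2 ratio of D351 over D16 of the translation factor genes (circles) and of all measured genes (diamonds) under each of 10 processing settings. The factor median lies to the left of that of all genes in every setting shown, and is above 0 with the arrays scaled on the hybridization controls.

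Genes that act on or beside the factors were grouped in lists. Their ratios are given only with the arrays brought to 1 median log2 level. Scaling on the hybridization controls moved the median of all genes from -0.03 to 0.34. The list medians and the calls higher in D16 are not given under it, so they may depend on the scaling. In the list of eIF2 kinases and of the stress response that follows eIF2 phosphorylation, the median of 11 measured genes was 0.06. Impact alone had a ratio or bound past 2-fold, upward in D351, where 10.6% of all genes did. Impact encodes an inhibitor of the kinase Gcn2 and read 24.0 in D16 and 49.4 in D351, both dim, by a probe set that can match other transcripts. The kinase genes measured in both clones were Eif2ak2, the kinase of the interferon response, with a log2 ratio of -0.86, Eif2ak1 with 0.16 and Eif2ak4 with 0.31. Eif2ak3, the kinase of the endoplasmic reticulum, was under the floor in D16 and had a bound of at least 0.84. The transcription factor gene Atf4, translated when eIF2 is phosphorylated, measured 1878 and 1148. Its target Trib3 measured 151 and 78.6, a log2 ratio of -0.94, so that both were lower in D351 within 2-fold.

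Of 5 genes for poly(A)-binding proteins and partners, 1 was at least 2-fold higher in D16, where 8.87% of all genes were. Pabpc4, a cytoplasmic poly(A)-binding protein gene, read 973 in D16 against 415 in D351, but a second, dim probe set had a log2 ratio of -0.04. Pabpc1, the main family member, measured 2670 and 2837. In the list of release and ribosome recycling, 5 of 6 genes were lower in D351, against 51.6% of all genes. The median was -0.62, and 1 gene reached 2-fold, against 8.87% of all genes higher in D16 by that size. Etf1, the release factor that reads stop codons, measured 1255 and 627, 2.00-fold higher in D16, at the limit itself. That probe set is of a kind that can match other transcripts. The other probe sets of Etf1 were also lower in D351. Their log2 ratios ran from -1.47 to -0.74, with a bound of at most -0.50 for a probe set under the floor in D351.

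Mitochondria have their own factors. In D16, 2 of the 4 measured genes were higher by 2-fold or more, where 8.87% of all genes were, and the list median was -0.68. Gfm1, a mitochondrial elongation factor, measured 125 in D16 and 52.0 in D351, and Tufm, which delivers tRNA to mitochondrial ribosomes, 240 and 116. A second Tufm probe set had a log2 ratio of -0.69, the same sign.

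In the list of mTOR and MNK signalling, the median of 10 measured genes was -0.24. Only Mtor passed 2-fold, upward in D16, where 8.87% of all genes did. Mtor, the kinase gene itself, read 150 in D16 against 62.4 in D351, and its second probe set had a log2 ratio of -0.58. Among the remaining cofactors and modifiers, 1 of 8 was at least 2-fold higher each way, against 10.6% of all genes in D351 and 8.87% in D16. Fmr1, which encodes a translational repressor, measured 133 and 459, 3.46-fold higher in D351. Abcf1, an eIF2-associated ATPase, measured 755 and 377, 2.00-fold higher in D16, at the limit itself.

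Ribosomal protein genes had a median of -0.34 over 28 measured genes, 24 of them lower in D351, against 51.6% of all genes. One gene was past 2-fold each way, Rpl13a (log2 ratio of -1.39) and Rps4l (at least 3.10, a probe set that can match other transcripts). The factor and ribosomal medians were thus alike in size on these arrays.

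**Figure D5:**
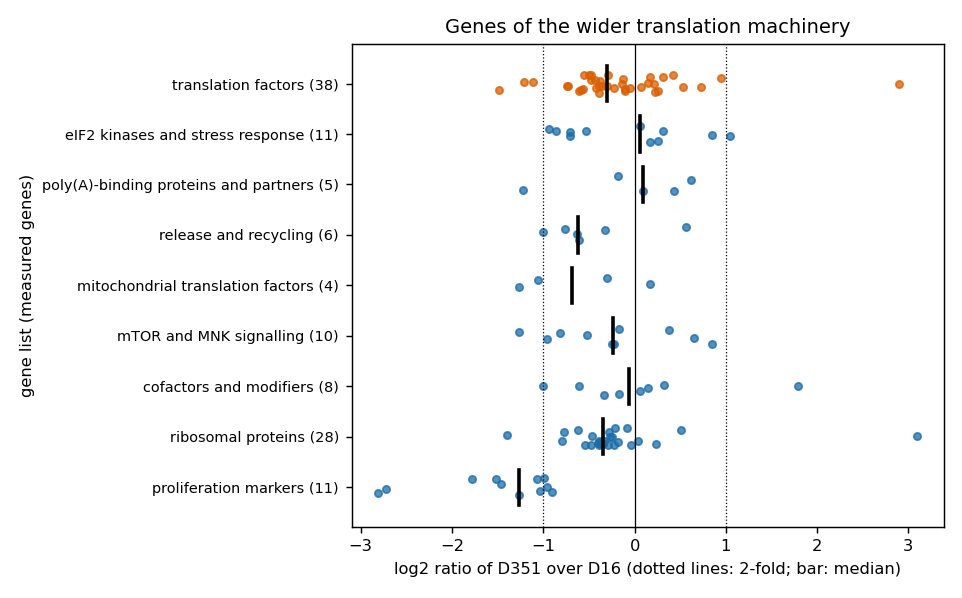
Log2 ratio of D351 over D16 of every measured gene in each list (points; number of genes in brackets), with the list median as a bar and 2-fold as dotted lines, 1 array per clone. The factor median of -0.30 lies near that of ribosomal proteins (-0.34), and all 11 proliferation markers lie below 0.

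Other measures also differed between the arrays. Of 11 measured proliferation markers, all were lower in D351 by the brightest probe set, where 51.6% of all genes were below 0. By 2-fold or more 8 were lower, against 8.87% of all genes. The list median was -1.27, with summed levels of 5458 in D16 and 1839 in D351. The marker values here are given under the scaling to 1 median level only. A second, dim Mki67 probe set went the other way, with a log2 ratio of 0.29. Of 10 fibroblast genes, listed because the clones began on fibroblast feeders, 5 passed 2-fold upward in D351 and 1 upward in D16. Of all genes, 10.6% and 8.87% did. The summed levels of the 10 fibroblast genes were 7055 and 11403, with none under the floor on both arrays. Of 10 progenitor and vascular markers on the array, Kit and Kdr were below the floor in both clones, and Cd34 was at 475 in D16 and below the floor in D351. Pdgfrb was past 2-fold the other way (54.4 and 197), and Acta2 and Mcam were higher in D351 with log2 ratios of 0.84 and 0.39. Alpl, under the floor in D16, had a bound of at least 0.13. Pecam1, Thy1 and Pdgfra were lower in D351, with log2 ratios of -0.60, -0.56 and -0.09. Of the 8 measured genes, 4 were lower in D351, and the median of the 8 was 0.02. The blood markers Ptprc and Itgam were below the floor in both, while Cd68 was under it in D16 and at 36.9 in D351 and Cd14 read 70.1 and 129; the summed level of the 4 blood markers was 79.6 in D16 and 174 in D351. The epithelial markers Krt8, Krt18 and Epcam were below the floor in both, and Cdh1 read 72.5 and 59.0. The ratio of 3′ to 5′ control probe sets, a measure of RNA integrity, was 1.81 in D16 and 1.37 in D351 for Actb and 1.56 and 1.44 for Gapdh. The 9 hybridization controls had a median log2 ratio of -0.39. The part of these differences in the factor ratios was not tested.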

How the data were processed

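Per the labels, total RNA from each of 2 mesoangioblast clones of the mouse went onto 1 Affymetrix U74A array. The deposited table holds a linear intensity for each probe set; its software, background method and detection calls are not named in the material used. The 2% trimmed means were 100.1 on both arrays, so the values appear scaled to a common target. Probe sets were named from GEO's annotation of version 2 of the array, and symbols were updated by Entrez number to RefSeq GRCm38.p6; all 60 member symbols matched and none changed.

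Both arrays were brought to 1 median log2 level, taken over probe sets that reached the floor on each (factors 0.983 for D16 and 1.02 for D351). As the floor served the 40th percentile, an intensity of 17.4, and lower values were raised to it. A gene under the floor in 1 clone has a bound, and in both no ratio. The brightest probe set stood for each gene. With 1 array per clone there is no test, differences were counted at 2-fold, and the number of arrays limits the precision. The members, the lists and the rule for naming genes (all members; in the other lists those past 2-fold, or else the brightest) were chosen with earlier results of these data known. Atf4, Trib3 and Pabpc1 were named in addition after their values were seen, and the promoter motifs were chosen after that too. The eIF2 kinase genes and some cell type markers within 2-fold or under the floor were also named outside that rule. The functions were tested on simulated arrays. Alternatives covered scaling, floor, probe set rule and threshold. Calculations used Python 3.11.15, numpy 2.4.6, pandas 2.3.3, scipy 1.17.1, statsmodels 0.14.6 and matplotlib 3.10.9.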

Additional observations from a re-analysis of the deposited data

Results flagged for a closer look

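Signal was also present in probe sets outside the comparison of the factors. Eif2s3x, the X-linked gamma subunit gene of eIF2, left out by the membership rule, read 755 in D16 against 975 in D351, a log2 ratio of 0.37. A probe set annotated with several symbols, which names no single gene, read 761 in D16 against 607 in D351, a log2 ratio of -0.33.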

How the results depend on the processing

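No paired analysis was possible because a clone is represented by only 1 array, which also leaves no replicate to drop. The 4 genes past 2-fold were the same with the values as deposited, quantile normalization, loess, floors at the 25th and 60th percentile, and a pseudocount of 20. Scaled on the hybridization controls, 3 factor genes (Eif2d, Eif4a2 and Eif4g3) passed 2-fold upward in D351 and 1 (Eif2s2) upward in D16, where 19.9% and 4.10% of all genes did. At 1.5-fold the counts were 3 and 7. With the mean of probe sets Eif2s2 was lost (-0.79), and without suffixed probe sets Eif4e2 was added (-1.18). The factor median ranged from -0.35 to 0.10 over the alternatives. With the floor at the 25th percentile the median of the 4E-binding group was 0.20, since Eif4enif1 then entered it. Of 101 counts and medians under the alternatives, 5 moved by more than 1.5 times (counts) or by more than the probe set SD of 0.52 (medians), as did 5 of 334 single log2 ratios by that SD. Smaller moves include the changes of sign given for the scaling on hybridization controls. Signal near the floor limits Eif3f, Eef1b2, Eef2k and the bound of Eif4g3.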
